A study of Mus musculus with 2 samples.

Results

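The genes described here encode the proteins of the cytosolic ribosome, and they were taken as every row of the expression table whose name starts with Rpl or Rps and goes on with the number, suffix or stalk letter of a ribosomal protein. This rule gave 84 of the 32291 rows, 52 named Rpl and 32 named Rps. Of these, 83 had at least 1 UMI (unique molecular identifier, the tag that marks 1 captured mRNA molecule), and 80 reached a mean of 0.5 UMIs per 10000 in every group of cell type and library. The 4 that did not were Rpl7l1, Rpl3l, Rpl39l and Rpl10l. The data were single-cell transcriptomes of colitis-associated colon tumors (CACs), induced in mice with the mutagen azoxymethane (AOM, 10 mg/kg) and 3 periods of dextran sodium sulfate (DSS) colitis, at 2.5% DSS and then at 2%. The mice were 6 to 10 weeks old at the start and were killed at day 110. 1 library held 6 to 8 tumors of 3 female Mir34a_F/F mice, whose Mir34a alleles are flanked by loxP sites, and the other held 6 to 8 tumors of 3 female Mir34a_Mye_KO mice, which carry the same alleles and LysM-Cre. This Cre is driven by the lysozyme M promoter and acts in myeloid cells, mainly macrophages and neutrophils and in part dendritic cells, whereas epithelial cells and lymphocytes are not its target. Each genotype thus had 1 library of pooled tumors, and the cell annotation used here named the library and not the mouse. Genotype and library cannot be told apart in any comparison below, no p-value can be given, and intervals cover counting error only.

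The library labelled Mir34a_F/F held 20312 cells with a median of 4787 UMIs, and the library labelled Mir34a_Mye_KO held 18571 cells with a median of 7716 UMIs. In all 11 cell types the cells of the Mir34a_Mye_KO library were deeper, by 1.11 times (endothelial cells) to 5.69 times (B cells) at the median, and had a higher median share of mitochondrial UMIs. Markers of each of the 11 annotated cell types were highest in their own type in both libraries, but markers of other types were also present and differed between the libraries. The summed level of 5 B cell markers was 12.5 UMIs per 10000 in macrophages of the Mir34a_F/F library and 40.8 in those of the Mir34a_Mye_KO library, 13.8 and 39.1 in neutrophils, 15.2 and 51.2 in epithelial cells and 16.2 and 34.0 in T cells. The summed level of 5 epithelial markers was 19.6 and 15.4 in macrophages, 28.6 and 17.8 in neutrophils and 26.0 and 14.6 in T cells, beside 69.6 and 49.7 in epithelial cells. Free RNA in the droplets was not corrected for, and its part in the differences between the libraries was not tested. The libraries had 96 cell barcodes in common. As a check of the labels, the row of the Mir34a primary transcript held 133 UMIs in 2208 macrophages of the Mir34a_F/F library and 462 UMIs in 2601 macrophages of the Mir34a_Mye_KO library, and the hairpin, stem-loop and mature rows held 0 in both libraries. The primary transcript was therefore not lower in macrophages under the knockout label, and where that row lies relative to the deleted segment is not given in the sources used here, so it does not check the labels. The libraries are named below as they are labelled.

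A cytosolic ribosome joins a small subunit, which reads the mRNA, with a large subunit, which forms the peptide bonds, and each of its proteins is needed in about the same number of copies. The mRNAs of these proteins are abundant in growing cells and begin with a cytosine followed by a run of pyrimidines, the 5′ terminal oligopyrimidine (TOP) motif, through which the kinase mTORC1 and the RNA-binding protein LARP1 control their translation together. Proliferating epithelial progenitors and activated lymphocytes are known for high ribosome production, whereas mature neutrophils are short-lived cells that no longer divide.

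RefSeq start sites (GRCm38.p6) were available for 64 of the 84 genes. A run of at least 6 C or T bases, counted from a C within 10 bases of an annotated start and read on the transcribed strand only, was present in 34 of the 64 (53.1%), and in 21.9% of all 27025 genes of the same table. Pyrimidines before that C were not counted. The windows printed here run from 12 bases before to 16 bases after an annotated start, that is, from the promoter into the first exon. They belong to genes to which the comparisons return, and the capitals mark the longest such run. A longer run that crosses the limit of 10 bases, as in Rps27l, is marked only from its first C inside the limit. The genes Rpl35, Rpl39, Rps27 and Rpl37 had some of the lowest ratios between the libraries and Rpl13a and Rps2 some of the highest. The shares of Rps9 and Rps27l were among the most variable between cell types, that of Rps6 was among the least variable, and Rpl41 was among the most abundant.
Rpl35, chr2:39005116-39005143, minus strand: ccccgCCCTTTCCTCTTTCTCTCgaacc
Rpl39, chrX:37085207-37085234, minus strand: aagctccgcctctagcgaCTTCTTCTaa
Rps27, chr3:90213633-90213660, minus strand: tccgctttcgCTCCTTTCCggcggtgac
Rpl37, chr15:5116601-5116628, plus strand: ttCCTgggcggaagcttatccacaggaa
Rpl13a, chr7:45128730-45128757, minus strand: accctgcgacaagaCCTCCTCCTTTCCC
Rps2, chr17:24720051-24720078, plus strand: cagtcgagatctcgcgCTTCTTggagca
Rps9, chr7:3704029-3704056, plus strand: gccttgtCTCTCTTTgtctcgggcctga
Rps27l, chr9:66946074-66946101, plus strand: ctCCTCCCCgccgcctctatcccggaag
Rps6, chr4:86857352-86857379, minus strand: cggaagtcgggCCTCTTTTTCgtgacgc
Rpl41, chr10:128549153-128549180, minus strand: acgggccggCTCggaagtgacgacaccg
The runs of Rps27 and Rps6 began 2 bases and 1 base before the annotated start, whereas Rpl37 and Rpl41 had no run counted in this way that was longer than 3 bases. Among the genes with a start site and a measured ratio between the libraries, the median over cell types of the log2 ratio between the libraries was -0.29 for the 33 with a run and -0.29 for the 28 without.

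The summed ribosomal protein mRNA of a cell, given as UMIs per 10000 UMIs of that cell and called the total here, differed more than 3 times between cell types. In the Mir34a_F/F library the mean total was 1890 in dendritic cells, 1682 in mast cells, 1638 in B cells and 1571 in T cells. Macrophages had 1285, basophils 1175, endothelial cells 1090, fibroblasts 1012 and epithelial cells 976. Erythroid cells, at 780, and neutrophils, at 570, were lowest. In the Mir34a_Mye_KO library dendritic cells (1549) and mast cells (1429) were again highest, followed by T cells (1179) and B cells (1090), and erythroid cells (683) and neutrophils (413) were again lowest. The highest mean total was 3.32 times the lowest in the Mir34a_F/F library and 3.75 times in the Mir34a_Mye_KO library.

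**Figure D1:**
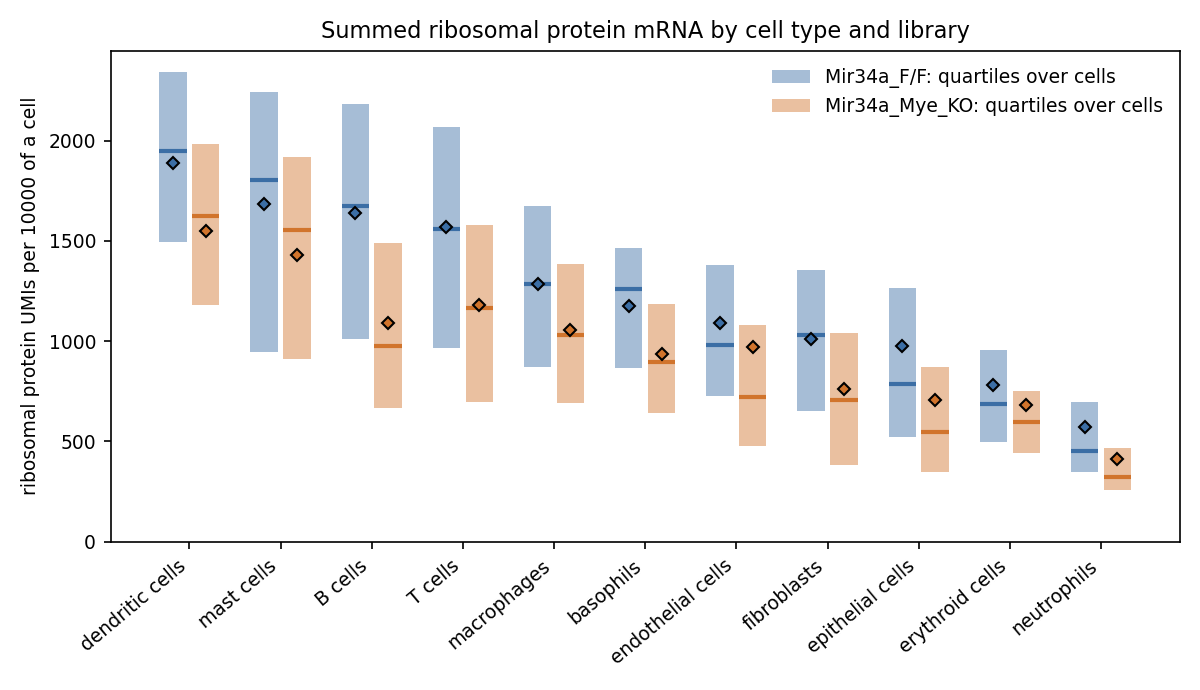
Ribosomal protein UMIs per 10000 UMIs of a cell (vertical axis) for the 11 cell types (horizontal axis) in both libraries. Bars span the quartiles over cells, lines are medians and diamonds are means, and the means run from 1890 in dendritic cells to 570 in neutrophils of the Mir34a_F/F library, with a lower mean in the Mir34a_Mye_KO library for every type.

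The spread within a cell type was wide. In the Mir34a_F/F library the quartiles over cells were 1496 and 2344 in dendritic cells and 946 and 2241 in mast cells, so these neighbours in the order overlapped. Neutrophils had quartiles of 349 and 697, below those of dendritic cells. Hemoglobin mRNA took a mean of 34.3% of the UMIs of erythroid cells in the Mir34a_F/F library and 21.3% in the Mir34a_Mye_KO library, and immunoglobulin mRNA took a median of 0.706% of the UMIs of B cells in the former and 30.4% in the latter. When mitochondrial, immunoglobulin, hemoglobin and ribosomal RNA-like genes were left out of the denominator, B cells became the highest cell type in both libraries, with mean totals of 2053 and 1726. Dendritic cells followed at 1999 and 1722, so the 2 types were nearly level in the Mir34a_Mye_KO library. Neutrophils stayed lowest at 623 and 483, and erythroid cells came to 1398 and 1197. The place of B cells and of erythroid cells in the order thus depended on the denominator. The order at the top also depended on the averaging and the cells kept, since mast cells were highest in the Mir34a_Mye_KO library with UMIs summed over cells, and in the Mir34a_F/F library with cells of 2000 to 10000 UMIs and under 10% mitochondrial content. B cells were second in the Mir34a_Mye_KO library with cells of 2000 to 10000 UMIs.

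The number of these genes seen in a cell at equal depth depends on the total itself, and it is given here as a description. After each cell had been thinned to 1000 UMIs, which left out 1 and 0 dendritic cells, 27 and 1 neutrophils and 627 and 160 epithelial cells with fewer, the median dendritic cell still showed 68 of the 84 genes in the Mir34a_F/F library and 65 in the Mir34a_Mye_KO library, against 32.5 and 26 in neutrophils and 45 and 37 in epithelial cells. Without thinning the medians were 80 and 80, 63 and 69, and 75 and 74. Of the 81 genes with a level of 0.5 in any group, 66 had the same highest cell type in both libraries, against 64.0% of all 7050 genes. This was dendritic cells for 52 of the 81, against 8.26% of all 7050 genes tested, and mast cells for 14, against 4.24% of all genes. None of the 81 was highest in macrophages, neutrophils or epithelial cells in either library.

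Levels of different genes are compared here per captured molecule, since a 3′ tag is counted once per mRNA whatever its length. The highest mean over the 22 groups, each group counted equally, was that of Rps29, a zinc-binding protein of the small subunit, at 33.0 UMIs per 10000, from 10.99 in neutrophils of the Mir34a_Mye_KO library to 69.0 in dendritic cells of the Mir34a_F/F library. Next came Rpl41, the smallest ribosomal protein, at 31.5, which had more UMIs than Rps29 over all cells (1208535 against 1062661) and a larger share of the total in epithelial cells of both libraries (3.54% and 3.47% against 2.95% and 2.45%), then Rps24 at 27.7 and Rpl37a at 27.2. The 10 most abundant genes made up 23.8% of the total and 27 genes made up 50%. Genes of the large subunit supplied between 54.2% and 57.1% of ribosomal protein UMIs in each of the 22 groups, so the balance of the subunits differed little where the total differed more than 3 times. Ribosomal protein genes have many processed pseudogenes, and where reads could come from several copies the level of a gene is uncertain.

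The make-up of the total was more alike between cell types than its size. For the 80 genes measured in every group, the SD over the 11 cell types of the log2 share of the total had a median of 0.18, whereas the SD of the log2 level had a median of 0.55. Rpl27a, Rplp2, Rps3a1, Rps6 and Rpl13 had the least variable shares (SD between 0.08 and 0.10). Rplp2 is a protein of the stalk that recruits the GTPases of elongation, and Rps6 is the substrate of S6 kinase. Rps6 made up 0.59% of the total in macrophages, 0.57% in neutrophils, 0.54% in epithelial cells and 0.53% in T cells of the Mir34a_F/F library, and 0.70%, 0.65%, 0.61% and 0.67% in the Mir34a_Mye_KO library. These shares lay close together across types and were higher in the Mir34a_Mye_KO library in each of the 4.

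The 5 genes with the most variable shares were Rps27l, Rpl10, Rps27, Rps9 and Rplp0, with SDs of 0.48, 0.38, 0.33, 0.29 and 0.29. Rps9, a protein of the small subunit, was highest in neutrophils in both libraries, at 2.38% and 3.16% of the total, and lowest in B cells, at 1.36% and 1.49%. Rpl10, which is needed for the joining of the subunits, was highest in mast cells, at 1.28% and 1.14%, and stood at 0.67% and 0.51% in epithelial cells. Rplp0, the base of the stalk, went the other way, with 0.65% and 0.78% in mast cells and 1.21% and 1.43% in epithelial cells. Rps27 was lowest in epithelial cells, at 1.22% and 0.97%, and its highest type differed between the libraries, with 2.65% in B cells of the Mir34a_F/F library and 1.88% in neutrophils of the Mir34a_Mye_KO library. These are descriptions of 1 library each, and their errors between mice are unknown.

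**Figure D2:**
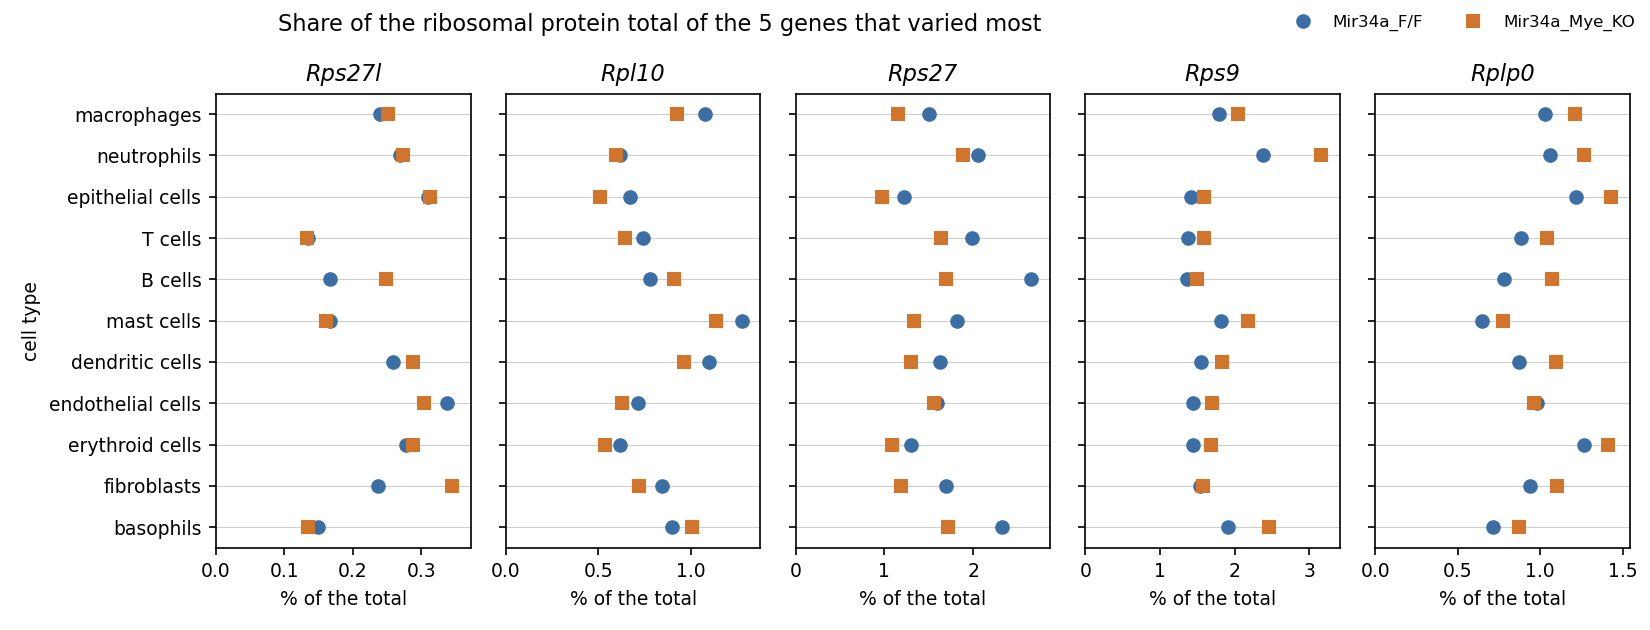
Share of the ribosomal protein total (percent, horizontal axes, each from 0) of the 5 genes whose share varied most over the 11 cell types (vertical axis). Circles are the Mir34a_F/F library and squares the Mir34a_Mye_KO library, and Rps9 stands highest in neutrophils and Rpl10 highest in mast cells in both.

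Some ribosomal proteins have a paralog encoded by a second gene, and the choice between the copies differed by cell type. Shares of a pair are given of UMIs summed over cells, so deep cells weigh more in them than in the mean levels. Rps27l, a p53-inducible paralog of Rps27, supplied 6.70% of the UMIs of the pair in T cells of the Mir34a_F/F library (exact 95% interval 6.47 to 6.93) and 7.04% in the Mir34a_Mye_KO library (6.82 to 7.26). In epithelial cells it supplied 20.3% (20.1 to 20.5) and 22.7% (22.5 to 23.0), and in macrophages 14.7% and 16.3%. B cells differed between the libraries, with 11.4% and 21.03%, as did their immunoglobulin content. The mean levels of Rps27l and Rps27 in B cells were 2.72 and 43.5 in the Mir34a_F/F library and 2.71 and 18.5 in the Mir34a_Mye_KO library. Rps27l was thus a smaller part of its pair in T cells than in epithelial cells in both libraries, with intervals that do not overlap.

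Rpl22l1, the paralog of the RNA-binding protein Rpl22, supplied 38.8% of its pair in mast cells of the Mir34a_F/F library (37.7 to 39.97) and 39.3% in the Mir34a_Mye_KO library (38.5 to 40.04). In T cells it supplied 26.0% and 27.5%, and in macrophages 30.9% and 30.8%. For Rpl36al and Rpl36a the order was different, with the paralog at 39.96% and 37.6% in mast cells, 57.4% and 64.4% in B cells and 54.2% and 50.5% in macrophages. Mast cells therefore had the highest Rpl22l1 share of the 7 types with at least 1000 UMIs of the pair in both libraries, and the lowest Rpl36al share of these types. In B cells the mean level of Rpl36al was below that of Rpl36a in the Mir34a_F/F library (8.38 and 9.58), unlike its share of summed UMIs. In the Mir34a_Mye_KO library it was above (8.23 and 6.18).

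The remaining paralogs had lower levels. Rpl7l1, a factor of ribosome assembly, had a mean level of 0.36, with 918 UMIs in macrophages of the Mir34a_F/F library and 1230 in the Mir34a_Mye_KO library, or 4.69% and 3.75% of its pair with Rpl7. Rpl3l, which replaces Rpl3 in heart and skeletal muscle, had 55 and 81 UMIs in neutrophils, or 2.63% (1.99 to 3.42) and 3.20% (2.55 to 3.96) of its pair, against 0.0861% (0.0660 to 0.110) and 0.136% (0.103 to 0.177) in epithelial cells. In macrophages Rpl3l had 141 and 120 UMIs, or 0.918% and 0.450% of the pair. In dendritic cells it had 19 and 9, or 0.659% and 0.125%. Rpl39l had 28 and 8 UMIs in macrophages, 18 and 44 in T cells, and 4 and 6 in the more numerous epithelial cells. Rpl10l, like Rpl39l known from the male germ line, had 0 UMIs in 38883 cells, which allows up to 0.00772% of cells with a UMI. No row carried the name Rps4l.

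Between the libraries, the mean total was lower in the library labelled Mir34a_Mye_KO in 11 of 11 cell types. The log2 ratio of the means (Mir34a_Mye_KO over Mir34a_F/F) was -0.59 in B cells, -0.47 in neutrophils, -0.46 in epithelial cells, -0.41 in T cells and fibroblasts, -0.33 in basophils, -0.29 in dendritic cells and macrophages, -0.23 in mast cells, -0.19 in erythroid cells and -0.17 in endothelial cells. Cells of a type can belong to different subtypes in the 2 libraries, and subtypes were not separated here. In B cells, cells with at least 25% immunoglobulin UMIs were 249 of 943 in the Mir34a_F/F library and 504 of 926 in the Mir34a_Mye_KO library, and within bins of under 5%, 5 to 25% and at least 25% the log2 ratio was -0.44, -0.20 and -0.27. Counting error was small beside the ratios of the 11 types, with 95% intervals of -0.29 to -0.28 in macrophages, -0.47 to -0.46 in neutrophils and -0.23 to -0.15 in erythroid cells. These widths come from summed UMIs and leave out the spread over cells. The totals had SDs of 416 and 472 over the 106 and 30 erythroid cells of the Mir34a_F/F and Mir34a_Mye_KO libraries. With UMIs summed over cells the ratio itself was -0.32 in macrophages, outside the interval given. T cells, B cells and epithelial cells, which LysM-Cre does not target, had ratios of the same sign as macrophages and neutrophils. Over whole libraries the genes took 13.02% of UMIs under the Mir34a_F/F label and 9.38% under the Mir34a_Mye_KO label. With the alternative denominator the ratio was -0.25 in B cells, -0.21 in epithelial cells, -0.37 in neutrophils, -0.34 in T cells, -0.18 in macrophages and -0.029 in endothelial cells. With only cells of 2000 to 10000 UMIs the total was lower in 10 of 11 types, the exception being endothelial cells (0.046).

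Depth and mitochondrial content moved with this difference, so totals were also compared within bins of each. Within bins of UMIs per cell the total was lower in the Mir34a_Mye_KO library in 26 of 29 pairs of at least 20 cells each, with log2 ratios from -1.39 (T cells of 2000 to 5000 UMIs) to 0.29 (endothelial cells of the same bin). Within bins of mitochondrial content it was lower in 26 of 29 pairs, from -0.80 to 0.09. A fixed bin of UMIs can hold different parts of the 2 libraries. The T cell bin of 2000 to 5000 UMIs held 1684 of 3088 Mir34a_F/F cells, with a median mitochondrial content of 1.71%. It held 512 of 2649 Mir34a_Mye_KO cells, with a median of 5.43%. With every cell thinned to 1000 UMIs the T cell ratio was -0.43. Epithelial cells had a log2 ratio of 0.065 at 500 to 2000 UMIs (826 and 864), -0.11 at 2000 to 5000, -0.54 at 5000 to 10000 and -0.95 at 10000 UMIs and over, where the totals were 1386 and 719. Macrophages had 0.16, -0.10, -0.73 and -0.26 in the same bins, and neutrophils had -0.32, -0.087, -0.575 and -0.775.

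**Figure D3:**
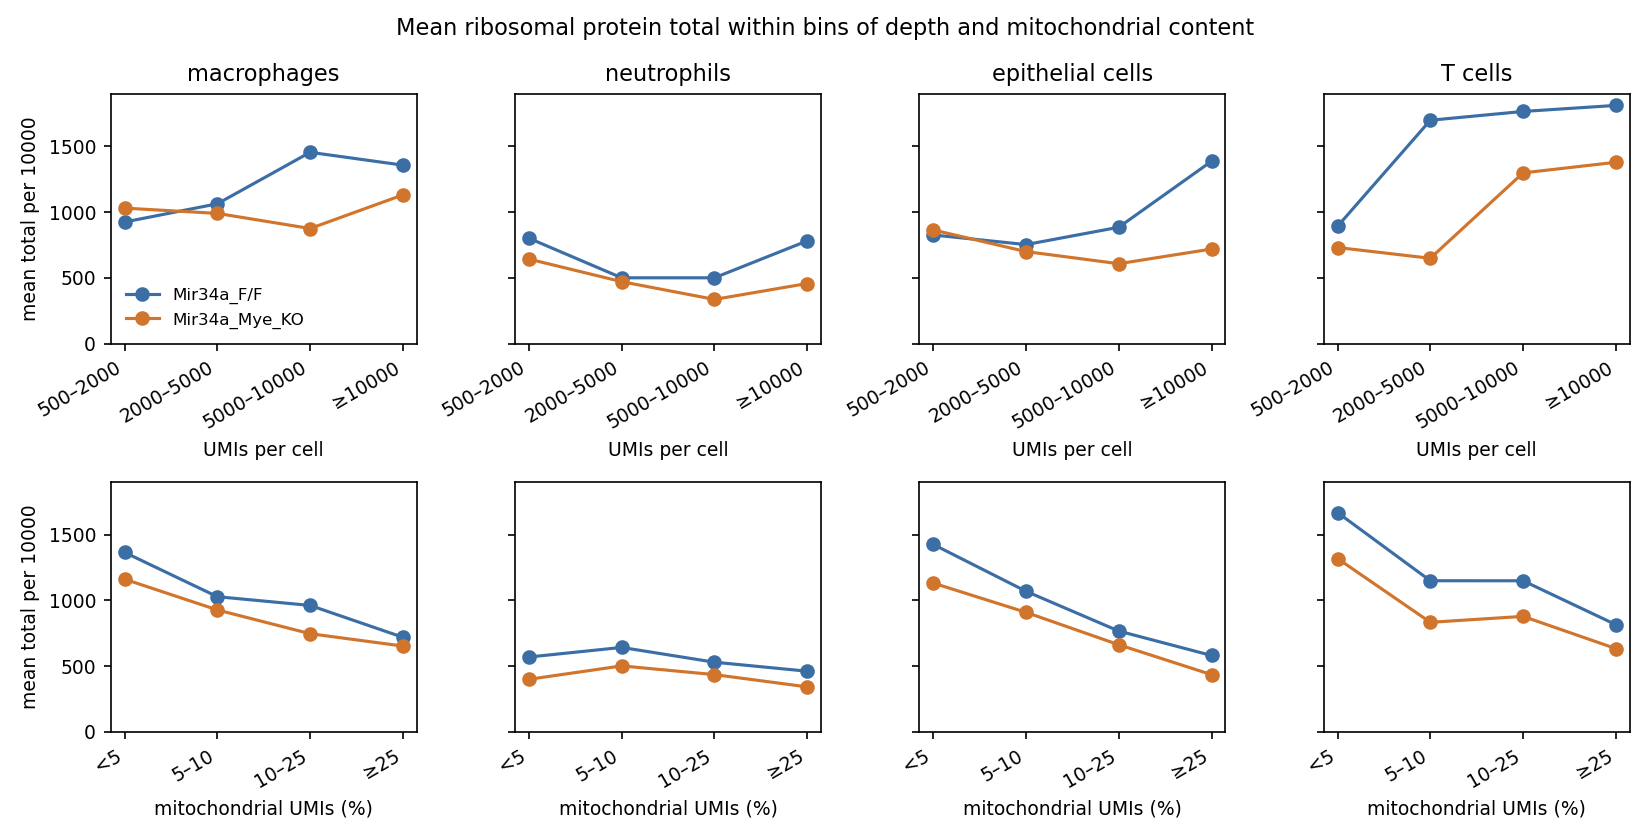
Mean ribosomal protein total per 10000 UMIs (vertical axes, from 0) in 4 cell types within bins of UMIs per cell (upper row) and of mitochondrial UMIs in percent (lower row), with 1 line per library. In epithelial cells the lines lie close in the shallowest bin, at 826 and 864, and stand at 1386 and 719 in the deepest, and in epithelial cells and macrophages the total is lower in each bin of higher mitochondrial content in both libraries. Mitochondrial UMIs count in the denominator of this total. With the alternative denominator, not drawn, both types were lower at 5 to 10% than under 5% in both libraries. They were higher at 25% and over than at 10 to 25%, as in macrophages with 1178 and 1236 in the Mir34a_F/F library and 961 and 1215 in the Mir34a_Mye_KO library.

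The epithelial value depended on which cells were kept. Median mitochondrial content was 11.2% in epithelial cells of the Mir34a_F/F library and 18.3% in those of the Mir34a_Mye_KO library, and over cells the rank correlation of the total with it was -0.55 and -0.60. Mitochondrial UMIs are part of the denominator of the total, so a higher mitochondrial share lowers the total by arithmetic. With the alternative denominator, the epithelial means at 10 to 25% and at 25% and over were 979 and 1091 in the Mir34a_F/F library. In the Mir34a_Mye_KO library they were 897 and 941. When only cells with 2000 to 10000 UMIs and under 10% mitochondrial content were kept, a choice made after the data had been seen, the log2 ratio of the epithelial total was 0.047, and it was -0.39 in macrophages, -0.43 in neutrophils and -0.62 in T cells. The lower epithelial total was thus not seen in these cells, whereas the sign stayed the same in the other 3 types. Of the 80 genes, 22 had a ratio below 0 in epithelial cells of this range, with a median of 0.090, against 69.9% of all genes tested in them, with a median of -0.13. The part of depth and mitochondrial content in the difference was not tested beyond these values.

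Within epithelial cells of 2000 to 10000 UMIs, the total also differed with markers of cell state. A UMI of Mki67, a proliferation marker, was present in 20.9% of these cells in the Mir34a_F/F library and 19.2% in the Mir34a_Mye_KO library, and also in 12.98% and 14.4% of neutrophils in the same range, which no longer divide (median UMIs 4541 and 5229 against 4187 and 6433). Krt20, a keratin of differentiated colonocytes, was present in 32.9% and 26.0% of epithelial cells and in 12.2% and 12.4% of neutrophils, and Lgr5, a stem cell marker, in 14.6% and 16.4% against 5.37% and 10.1%. A single UMI is thus no proof of expression, and the following values describe cells with and without a UMI. Epithelial cells with a UMI of Mki67 had a mean total of 972 in the Mir34a_F/F library, against 766 in cells without, and 738 against 629 in the Mir34a_Mye_KO library. Cells with Krt20 had 650 against 887 and 532 against 692. Cells with Lgr5 had 838 against 804 and 626 against 655. Cells with an Mki67 UMI were higher and cells with a Krt20 UMI lower in both libraries, while the sign of the means for Lgr5 differed between them. The median total with an Lgr5 UMI was higher in both, at 708 against 621 and 484 against 431. Depth also differed, with median UMIs of 5366 and 4328 in Mir34a_F/F cells with and without Mki67 and 6119 and 5041 in Mir34a_Mye_KO cells. Mitochondrial content differed as well, with medians of 13.5% and 15.1% in Mir34a_F/F cells with and without Mki67 and 19.3% and 29.5% in Mir34a_Mye_KO cells. For Lgr5 the median UMIs were 5216 and 4433.5 in Mir34a_F/F cells and 6093 and 5079 in Mir34a_Mye_KO cells. The mitochondrial medians for Lgr5 were 10.5% and 15.4%, and 16.3% and 30.2%. For Krt20 the median UMIs were 5356 and 4168, and 6605 and 4845. The mitochondrial medians for Krt20 were 15.2% and 14.3%, and 25.1% and 28.5%. The part of depth and mitochondrial content in these values was not tested.

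For single genes the log2 ratio was taken between the mean levels of the libraries for every gene with a level of at least 0.5 in either. In macrophages 75 of 80 ribosomal protein genes had a ratio below 0, against 55.2% of all genes tested, in neutrophils 80 of 80 against 48.1%, and in T cells 79 of 80 against 47.4%. In epithelial cells it was 80 of 80, but 90.8% of all genes tested lay below 0 there. A ratio of -0.5 or lower was reached by 9 of 80 in macrophages against 4.86% of all genes, by 30 in neutrophils against 10.8%, by 29 in epithelial cells against 9.21% and by 23 in T cells against 9.48%. None of the 80 had a ratio of 0.5 or higher in these 4 types, where 2.75%, 13.1%, 1.52% and 4.43% of all genes did. The median ratio of the ribosomal protein genes was -0.22 in macrophages, -0.45 in neutrophils, -0.44 in epithelial cells and -0.38 in T cells, and the median of all genes tested was -0.04, 0.02, -0.23 and 0.03.

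In the smaller populations the counts below 0 were 80 of 80 in B cells against 78.1% of all genes, 65 of 80 in mast cells against 56.6%, 72 of 81 in dendritic cells against 45.1%, 65 of 80 in endothelial cells against 64.0%, 60 of 80 in erythroid cells against 44.9%, 74 of 80 in fibroblasts against 58.8% and 68 of 80 in basophils against 54.0%. A ratio of -0.5 or lower was reached by 43 of 80 in B cells against 27.8% of all genes and by 9 of 81 in dendritic cells against 4.41%. The share of the 80 was below that of all genes in the other 5 types, with 8 in mast cells against 13.2%, 6 in endothelial cells against 24.8%, 10 in erythroid cells against 26.3%, 22 in fibroblasts against 29.7% and 20 in basophils against 27.2%. None of the 80 reached 0.5 or higher in these 5 types, against 5.76%, 9.56%, 36.5%, 17.6% and 22.8% of all genes. Genes were tested from a level of 0.5, while the lowest mean level of the 80 was 2.55 (Rps27l). The medians of the 80 and of all genes were -0.20 and -0.05 in mast cells and -0.10 and 0.13 in erythroid cells. They were -0.37 and -0.15 in fibroblasts and -0.25 and -0.07 in basophils. The median of endothelial cells, -0.18, was the same as that of all genes tested in them. Of the 80 genes, 40 were lower in the Mir34a_Mye_KO library in all 11 cell types, against 14.3% of the 1608 genes tested in all 11, and 58 were lower in at least 10, against 29.7% of these genes. The cell types of a library share its preparation and sequencing, so they are not independent repeats.

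**Figure D4:**
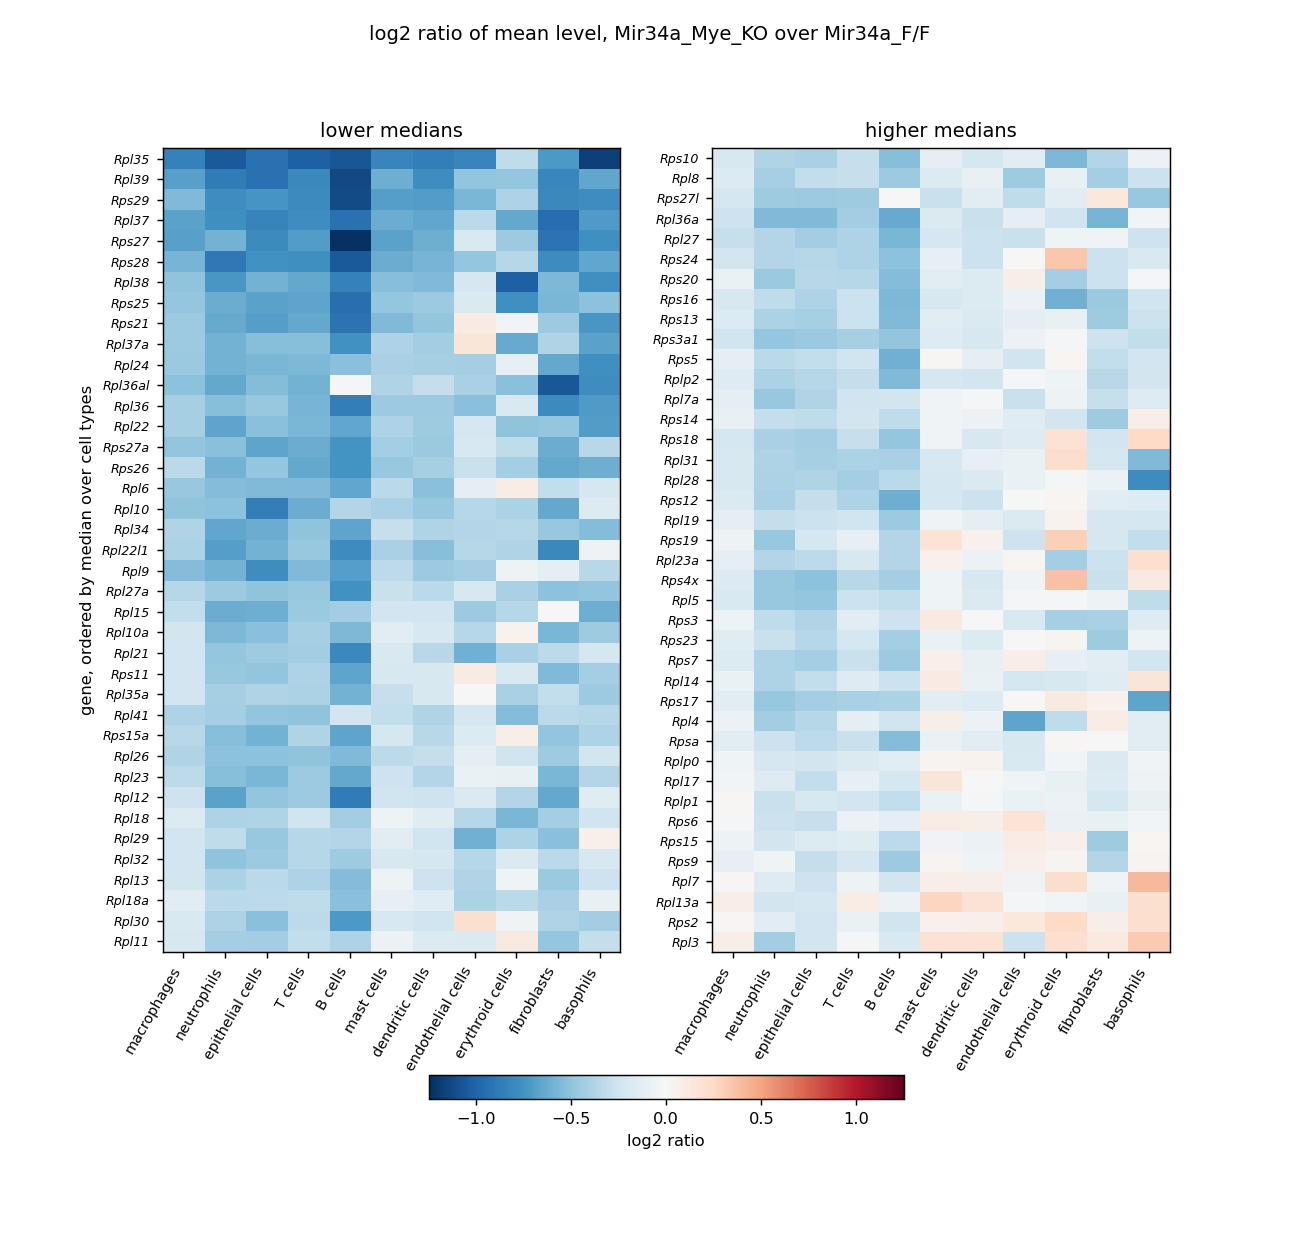
Heatmap of log2 ratios of mean levels (Mir34a_Mye_KO over Mir34a_F/F, color) for 79 ribosomal protein genes (rows, ordered by median over cell types) in 11 cell types (columns). Blue is lower in the Mir34a_Mye_KO library, and the rows run from Rpl35, with a median of -0.87, to Rpl3, with a median of 0.08.

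The same few genes led the list in most cell types. Rpl35, a protein at the exit of the peptide tunnel of the large subunit, had levels of 12.7 and 7.11 in macrophages (log2 ratio -0.84), 4.32 and 2.09 in neutrophils (-1.05), 10.2 and 5.33 in epithelial cells (-0.93) and 12.9 and 6.37 in T cells (-1.02), in the order Mir34a_F/F and Mir34a_Mye_KO. It was the lowest of the 80 in each of these 4 types. Rpl39, another protein of the exit tunnel, had 26.9 and 16.8 in macrophages (-0.68), 9.43 and 5.15 in neutrophils (-0.87), 17.2 and 9.04 in epithelial cells (-0.93) and 36.6 and 20.9 in T cells (-0.81). Rps29 had 51.6 and 35.2 in macrophages (-0.55), 18.9 and 10.99 in neutrophils (-0.78), 28.8 and 17.3 in epithelial cells (-0.73) and 49.1 and 28.2 in T cells (-0.80). The other genes among the lowest 5 in these types were Rpl37, Rps27 and Rps28, with ratios from -0.90 to -0.58, and Rpl10 in epithelial cells (-0.86). Rpl35, Rpl39, Rps29, Rpl37, Rps27, Rps28 and Rpl38 were the 7 of 80 genes at -0.5 or lower in at least 9 of the 11 types, against 2.8% of the 1608 genes tested in all 11. Counting intervals above 0 in a cell type and below 0 in another were found for 3 of the 80 genes among macrophages, neutrophils, epithelial cells and T cells, against 34.4% of 2018 genes, and for 15 of the 80 among all 11 types, against 52.3% of the 1608 genes. Such intervals leave out the spread over cells, so a sign near 0 may depend on the averaging.

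At the other end stood Rpl3, Rps2, Rpl7, Rpl13a, Rps6 and Rps9. Rpl3, which lies next to the peptidyl transferase centre, had 7.40 and 7.81 in macrophages (0.078), 8.97 and 8.83 in T cells (-0.023), 3.55 and 2.63 in neutrophils (-0.43) and 6.28 and 5.36 in epithelial cells (-0.23). Rpl13a, which also takes part in an interferon-induced translation block, had 11.6 and 12.3 in macrophages (0.085), 17.9 and 19.0 in T cells (0.089), 6.13 and 5.24 in neutrophils (-0.23) and 10.97 and 9.45 in epithelial cells (-0.22). Rps9 had 13.6 and 13.04 in neutrophils (-0.056), the highest ratio there, and Rps15, at 13.04 and 11.6, had the highest in epithelial cells (-0.17). Rps2 had 9.68 and 9.80 in macrophages (0.017) and 10.9 and 10.3 in T cells (-0.081), and Rpl7 had 9.54 and 9.62 (0.011) and 10.8 and 10.4 (-0.065). Rps6 had 7.53 and 7.41 (-0.023) and 8.29 and 7.85 (-0.078). In macrophages and T cells Rpl3, Rpl13a, Rps2, Rpl7 and Rps6 thus differed by less than 0.1 on the log2 scale while Rpl35 stood at -0.84 and -1.02, so the difference in the total was unequal among the genes.

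Rplp0 and Rplp1, which with Rplp2 form the stalk, had ratios nearer to 0 than most, with 13.2 and 12.7 (-0.054) for Rplp0 and 25.3 and 25.6 (0.017) for Rplp1 in macrophages, and 11.9 and 10.1 (-0.23) and 19.5 and 17.0 (-0.20) in epithelial cells. Rplp2 had 18.7 and 16.7 (-0.17) and 13.1 and 10.2 (-0.36). Rpsa, also known as a laminin-binding protein, had 15.7 and 14.4 in macrophages (-0.13) and 18.4 and 14.7 in epithelial cells (-0.33). Rpl5 and Rpl11, which bind Mdm2 together with 5S rRNA when ribosome assembly is disturbed, had 9.90 and 8.69 (-0.19) and 11.5 and 10.1 (-0.20) in macrophages, and -0.48 and -0.43 in epithelial cells. Rps19, mutated in Diamond-Blackfan anemia, had 12.9 and 12.3 in macrophages (-0.063) and 6.01 and 4.33 in neutrophils (-0.47), where Rpl17 had -0.16. Rps27a, which is made as a fusion with ubiquitin, had 27.5 and 19.6 in macrophages (-0.49) and 15.7 and 9.89 in epithelial cells (-0.66). In macrophages and epithelial cells Rplp0 and Rplp1 thus stood above the median of the 80, and Rps27a under it.

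The ratios of Fau and Rack1, which encode components of the ribosome but lie outside the naming rule, were also unequal. Fau, whose product is a ubiquitin-like fusion with a small subunit protein, had levels of 38.2 and 27.6 in macrophages (-0.47) and 19.6 and 13.7 in epithelial cells (-0.515). Rack1, the scaffold protein on the small subunit, had 9.04 and 9.42 in macrophages (0.060) and 6.63 and 5.89 in epithelial cells (-0.17).

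Other TOP mRNAs had a summed ratio nearer to 0 than that of the ribosomal protein genes in the 7 types given here. The list holds 17 genes of elongation and initiation factors and related proteins, whose summed log2 ratio was 0.091 in macrophages, -0.075 in neutrophils, -0.15 in epithelial cells, 0.0065 in T cells, -0.13 in B cells, 0.13 in dendritic cells and 0.16 in mast cells. The sums are carried by a few abundant genes, and the medians over genes were lower, at -0.037 in macrophages, -0.26 in neutrophils, -0.25 in epithelial cells and -0.10 in T cells. Of those tested, 10 of 17 were below 0 in macrophages (55.2% of all genes), 13 of 14 in neutrophils (48.1%), 15 of 17 in epithelial cells (90.8%) and 11 of 16 in T cells (47.4%). Tpt1 had 37.7 and 41.9 in macrophages (0.15), and Eef1a1, the elongation factor that delivers aminoacyl-tRNA, had 20.9 and 22.7 (0.12) in macrophages and 18.3 and 15.9 (-0.20) in epithelial cells. The 2 leading genes of this list were thus not lower in macrophages of the Mir34a_Mye_KO library.

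Proteins of the mitochondrial ribosome, which translates the mRNAs of the mitochondrial genome, differed in sign between cell types. Of the 77 genes, 19 of 19 tested lay below 0 in macrophages (median -0.23, against 55.2% of all genes), 21 of 21 in epithelial cells (-0.42, against 90.8%), 18 of 18 in T cells (-0.43, against 47.4%) and 5 of 6 in neutrophils (-0.38, against 48.1%). In erythroid cells only 4 of 21 did (median 0.66, against 44.9% of all genes), on 106 and 30 cells. In the other 6 types the medians lay between -0.62 and -0.23. The same shares of all genes apply to the lists that follow. Among 23 genes of ribosome biogenesis the counts were 5 of 8, 10 of 10, 8 of 9 and 4 of 4, with medians of -0.16, -0.32, -0.28 and -0.31. Ncl, which encodes nucleolin, had 3.49 and 3.50 in macrophages (0.0033) and 4.16 and 3.64 in epithelial cells (-0.19). Of 13 regulators of ribosome production, such as Mdm2 and Eif4e, 4 of 9 tested were below 0 in macrophages, 9 of 9 in epithelial cells, 4 of 9 in T cells and 3 of 5 in neutrophils. Of 12 genes of S phase and mitosis, 1 of 3, 3 of 3, 3 of 4 and 2 of 2 were below 0 in the same order. Of 8 genes of epithelial differentiation, 5 of 5 tested in epithelial cells were below 0, where 90.8% of all genes were. The 5 ribosomal pseudogene rows did not reach 0.5 in these types.

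Annotated transcript length moved with the ratios, and this was examined after the data had been seen. The ribosomal protein genes are short, with a median length of 704 bases over the 80 genes tested in macrophages, against 2125 bases for the other genes. Across the other genes the rank correlation of the log2 ratio with length was 0.32 in macrophages (3347 genes), 0.31 in neutrophils, 0.34 in epithelial cells and 0.38 in T cells, and among the 80 ribosomal protein genes it was 0.26, 0.19, 0.19 and 0.29. Other genes under 600 bases had median ratios of -0.25, -0.34, -0.41 and -0.35 in these types, beside -0.24, -0.44, -0.48 and -0.40 for the 27 ribosomal protein genes of that length. At 600 to 1000 bases the medians of the other genes were -0.14, -0.15, -0.31 and -0.18, beside -0.23, -0.47, -0.43 and -0.37 for 39 ribosomal protein genes. In macrophages, then, the shortest ribosomal protein genes had about the median of other genes as short, while at 600 to 1000 bases their median was lower in these 4 types. This did not hold in every type. In mast cells the medians were -0.22 for the ribosomal protein genes and -0.32 for the others under 600 bases, and -0.16 and -0.18 at 600 to 1000 bases. In endothelial cells they were -0.11 and -0.31 under 600 bases and -0.26 and -0.28 at 600 to 1000 bases. Across the other genes the rank correlation with length was 0.32 in dendritic cells and 0.27 in mast cells. It was only 0.15 in endothelial cells, 0.13 in B cells, 0.11 in basophils, 0.10 in fibroblasts and 0.09 in erythroid cells. Among the ribosomal protein genes it was -0.025 in endothelial cells and 0.089 in erythroid cells, and 0.24 or higher in the remaining types. These correlations are across genes of the same 2 libraries, genes are not independent replicates, and the part of length in the difference was not tested further.

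**Figure D5:**
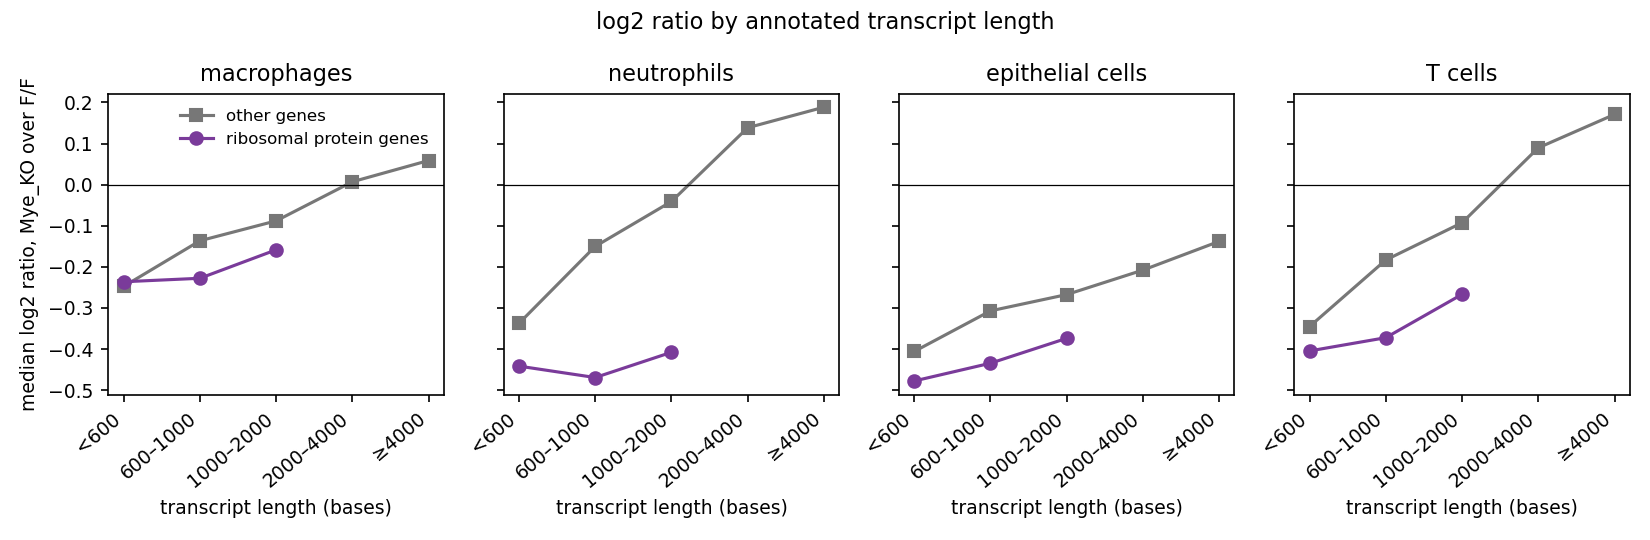
Median log2 ratio of mean levels (Mir34a_Mye_KO over Mir34a_F/F, vertical axis) by annotated transcript length in bases (horizontal axis) in 4 cell types, for ribosomal protein genes (circles, classes with at least 5 genes) and other genes (squares). The medians of other genes climb from -0.25 to 0.06 in macrophages between the shortest and the longest class, and the ribosomal protein genes start at -0.24.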

How the data were processed

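Cells were captured on the 10x platform with 3′ counting of UMIs. Per the labels, Cell Ranger 7.2.0 and mm10 were used. The methods name Scrublet for doublets and Seurat for scaling. Each deposited value is a natural log, taken after the count of a gene was scaled to 10000 UMIs per cell and raised by 1. The deposited annotation gave library and cell type. The methods state a limit of 25% mitochondrial RNA, yet 2470 and 4130 cells of the Mir34a_F/F and Mir34a_Mye_KO libraries lay at or above it. They were kept, and left out in an alternative.

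The log was undone and whole UMIs were recovered (largest deviation 1.5e-10). A level is the mean over cells of UMIs per 10000. Log2 ratios were taken where either library reached 0.5, with no pseudocount, and intervals come from exact binomial intervals of summed UMIs at 95%. The interval code was tested on simulated counts with the same rate in all cells, for ratios of summed UMIs. Intervals set around ratios of mean levels were not tested in this way, and they leave out the spread over cells. Cells are not replicates, and with 1 library per genotype no test was run. Genes named were the 5 highest and 5 lowest in level, share variability and ratio, the paralogs, and genes of known function, of which some values are not reported here. Members and lists were chosen with earlier results of these data known. Lengths are medians over protein-coding transcripts of GENCODE M21. The alternatives changed the averaging, denominator, cells kept, depth, members, pseudocount and minimum. Python 3.11.15 with numpy, scipy and pandas was used.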

Additional observations from a re-analysis of the deposited data

Results flagged for a closer look

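Among macrophages, neutrophils, epithelial cells and T cells, there were 3 of 80 genes whose counting interval of the log2 ratio (Mir34a_Mye_KO over Mir34a_F/F) lay above 0 in a cell type and below 0 in others. The same held for 34.4% of the 2018 genes tested in these 4 types. Over all 11 cell types there were 15 of 80 such genes, against 52.3% of the 1608 genes tested in all of them. Rpl13a had 0.085 in macrophages (0.062 to 0.108) and 0.089 in T cells (0.067 to 0.111), against -0.23 in neutrophils and -0.22 in epithelial cells. Rplp1 had 0.017 in macrophages (0.001 to 0.033), against -0.28 in neutrophils, -0.20 in epithelial cells and -0.24 in T cells. Rpl3 had 0.078 in macrophages (0.049 to 0.107), against -0.43 in neutrophils and -0.23 in epithelial cells. These intervals take their width from summed UMIs, are set around ratios of means and leave out the spread over cells. A sign near 0 may therefore depend on the averaging. The difference between cell types was not tested, since each type had 1 library per genotype.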

How the results depend on the processing

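No paired analysis was possible because each genotype had 1 library. Of 152 values under 11 alternatives, 92 moved by less than the counting interval or the limit for a count, 58 moved further and 2 turned their sign. Of 36 log2 ratios of the total in macrophages, neutrophils, epithelial cells and T cells, 35 stayed below 0. In endothelial cells, which are not among these, the ratio was 0.046 with 2000 to 10000 UMIs. It was 0.27 with a mitochondrial content under 10% as well. The ratios below are given for macrophages, neutrophils, epithelial cells and T cells in this order, and the highest total over the lowest for the Mir34a_F/F and then the Mir34a_Mye_KO library. With UMIs summed over cells the ratios were -0.32, -0.51, -0.80 and -0.38, with a highest over lowest total of 3.14 in the Mir34a_F/F library. With medians over cells they were -0.31, -0.47, -0.53 and -0.42, with 4.32 and 4.99. With the denominator that leaves out mitochondrial, immunoglobulin, hemoglobin and ribosomal RNA-like genes they were -0.18, -0.37, -0.21 and -0.34, with 3.29 and 3.57. With cells under 25% mitochondrial content they were -0.28, -0.46, -0.29 and -0.41, with 3.33 in the Mir34a_F/F library. With cells that expressed 500 mRNAs or more and had a mitochondrial content under 10% they were -0.26, -0.48, -0.33 and -0.39, with 3.40 and 3.9995. With 2000 to 10000 UMIs they were -0.46, -0.43, -0.32 and -0.64, with 3.86 and 3.54. Such a range can hold different parts of the 2 libraries, since cells of the Mir34a_Mye_KO library were deeper. With thinning to 1000 UMIs the ratio was -0.44 in neutrophils and -0.43 in T cells, with 3.38 in the Mir34a_F/F library. With 2000 to 10000 UMIs and under 10% mitochondrial content, chosen after seeing the data, they were -0.39, -0.43, 0.047 and -0.62, with 4.03 and 4.06. There 22 of 80 genes were lower in epithelial cells (69.9% of all genes), their median was 0.090 (-0.13 over all genes), and 9 of 11 cell types had a lower total. The cause was not tested. With 2000 to 10000 UMIs alone, 10 of 11 had one. Depth limits the paralogs with few UMIs, Rpl3l, Rpl39l and Rpl10l, and types with few cells, such as the 30 erythroid cells of the Mir34a_Mye_KO library, and the epithelial ratio ran from 0.065 to -0.95 over bins of UMIs per cell.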
